A study of Drosophila melanogaster with 8 samples.

Results

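Closely matching Dll and Sp1 peaks are places in the genome where 1 binding peak of each protein covered nearly the same stretch of DNA in the leg imaginal discs of Drosophila melanogaster larvae. A Dll peak and an Sp1 peak were counted as a matched pair when each overlapped only the other, by 1 bp or more, and when the segment they had in common made up at least 50% of both peaks, outside chromosome 4. There were 1710 such pairs among 7195 overlapping pairs in all. They held 13.9% of the 12319 Dll peaks and 17.4% of the 9850 Sp1 peaks. For comparison, 43.1% of Dll peaks overlapped any Sp1 peak and 72.1% of Sp1 peaks overlapped any Dll peak. The pairs were chosen by the borders of the called peaks, and a peak was called on its score, so the lengths, scores and overlaps below are a description and carry no test.

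Leg imaginal discs are the epithelial sacs from which the adult fly legs form. Distal-less (Dll) is a homeodomain transcription factor needed for the distal parts of limbs, and Sp1 is a zinc-finger transcription factor of the Sp family that acts in leg growth and identity together with its relative buttonhead. Both genes are active in leg primordia that receive Wingless (Wnt) and Decapentaplegic (Dpp) signals, and regulatory elements of leg genes can hold sites for both proteins and for the nuclear effectors of these pathways, Pangolin (Pan) and Mad. Chromatin immunoprecipitation sequencing (ChIP-seq) recovers the DNA that is crosslinked to a protein, and a peak is a stretch where the recovered reads exceed those of unselected input chromatin.

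Dll was recovered with a goat anti-Dll antibody from leg discs of yw larvae, which carry the untagged protein. Sp1 was recovered with a rabbit anti-GFP antibody from larvae with the Sp1-GFP (BAC) transgene, a bacterial artificial chromosome with a GFP-tagged copy of Sp1, so the peaks reflect the tagged protein in animals that also have their own Sp1 gene. Each factor had 3 ChIP libraries and 1 input library by the labels. Chromatin came from pools of 100 L3 wandering larvae, with all 6 leg discs of each, so every value is an average over all leg discs and all their cells, and genotype, antibody and target protein cannot be told apart between the lists. Peaks were called on merged libraries, so each pair has 1 value for Dll and 1 for Sp1, with no replicate error, and the depth of the libraries is unknown here. A range in brackets after a share is its 95% Wilson interval; it holds counting error alone and takes each pair as independent of the others.

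The Sp1 peak was usually the shorter of a pair and lay inside the Dll peak. Matched Dll peaks had a median length of 248 bp (58 to 2352 bp), against 293 bp over all Dll peaks. Matched Sp1 peaks had a median of 195 bp (53 to 1670 bp), against 130 bp over all Sp1 peaks. With peaks of a list within 500 bp joined, these medians became 837 bp and 669 bp. The Dll peak was longer in 1377 pairs (80.5%), the Sp1 peak was longer in 324, and the lengths were equal in 9. In 1053 pairs (61.6%) the Sp1 peak lay wholly within the Dll peak, in 145 the Dll peak lay within the Sp1 peak, in 511 the borders were staggered, and in 1 all borders were the same. These types differed in score as well as in shape. Where the Dll peak lay within the Sp1 peak, the median percentile rank by score within the whole list was 30.03 for Dll and 77.8 for Sp1, and where the Sp1 peak lay within the Dll peak, the ranks were 66.1 and 60.9.

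**Figure D1:**
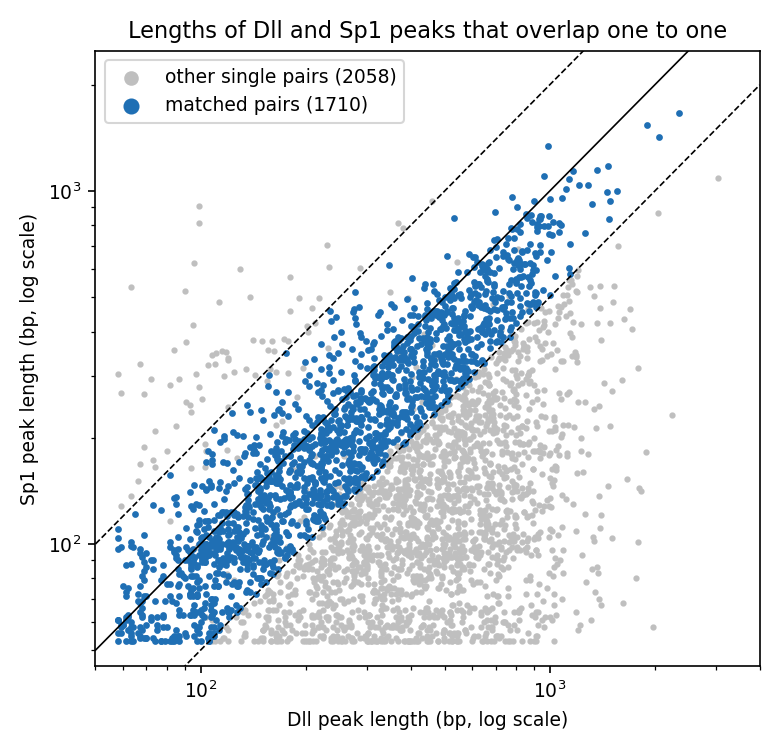
Length of the Sp1 peak against length of the Dll peak (bp, log scales) for the 1710 matched pairs (blue) and the 2058 other pairs whose peaks overlapped only each other (grey). The solid line marks equal lengths and the dashed lines a ratio of 2 either way, which the 50% rule does not let matched pairs cross; most matched pairs lie under the line of equal lengths, as the 1377 pairs with the longer Dll peak.

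The common segment was 183.5 bp long at the median (46 to 1670 bp). The smaller of the 2 shared percentages was 72.7% at the median. It was at least 60% in 1338 pairs, at least 70% in 954, at least 80% in 618 and at least 90% in 284. The 50% limit did not fall in a gap of this distribution. Among the members just inside it, the pair at chr2L:5289283-5289389 (Dll peak) shared exactly 50% of the Dll peak with an Sp1 peak of 53 bp, and 2 further pairs on 2L, with Dll peaks from 15389258 and 16325800, also shared exactly 50%. The single pairs just outside shared 49.9% of the Dll peak, on 2L from 11176140 and on 3R from 19144887 and 4783371. Their Dll scores of 5.44, 28.6 and 9.16 spanned those of the pairs just inside, which were 9.50, 10.1 and 17.8.

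The centres of the 2 peaks lay 20.5 bp apart at the median, a value that depends on the rule: it was 4.5 bp when 90% of both peaks had to be common and 74.5 bp when peaks of a list within 500 bp were joined. The distance was at most 20 bp in 852 pairs and at most 50 bp in 1313, and it was over 100 bp in 118. The Sp1 centre was on the right of the Dll centre in 843 pairs and on the left in 858, with a median signed distance of -0.5 bp, so neither side of the reference strand prevailed. The closest match was chr3R:15857278-15857340, where the Dll and the Sp1 peak had the same borders over 62 bp, with scores of 5.72 and 10.4. Long pairs could match as closely. On X the Dll peak from 19577000 to 19577856 and the Sp1 peak from 19577001 to 19577861 had 855 bp in common, and on 3R the Dll peak from 9837561 to 9838342 and its Sp1 partner had 777 bp in common. The longest common segment, 1670 bp, lay on 3R within the Dll peak from 25080317 to 25082669. It held a candidate region (explained below) assigned to string (stg), which encodes the Cdc25 phosphatase that starts mitosis. The next longest were 1490 bp, at the POU-domain gene pdm3 on 2R, and 1424 bp, at the Dll gene itself.

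A peak score here is the −log10 q-value given by the peak caller for enrichment over input, so a score of 4 is a q-value of 0.0001, the lowest kept. Scores of the 2 lists come from separate libraries and antibodies and are not levels of occupancy on 1 scale, so each peak was also given its percentile rank within its whole list, with 100 as the highest score. Matched pairs were found across the whole range. Their Dll scores ran from 4.00 to 42.4 with a median of 7.83, against 7.09 over all Dll peaks, 5.98 in Dll peaks without an Sp1 partner and 11.045 in Dll peaks with a partner outside the matched pairs. Their Sp1 scores ran from 4.00 to 68.1 with a median of 7.77, against 6.52 over all Sp1 peaks, 5.72 in those without a Dll partner and 6.82 in those with a partner of another kind. So by median score the matched Dll peaks stood between the unpartnered and the other partnered Dll peaks, and the matched Sp1 peaks stood above both other groups.

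The median percentile rank was 56.8 for matched Dll peaks and 64.5 for matched Sp1 peaks. Other kinds of pairs had other median ranks, with that of Sp1 both lower and higher. Where a single Sp1 peak had at least 50% of its own length but under 50% of the Dll peak in common (1939 pairs), the medians were 69.1 for Dll and 43.6 for Sp1, and where a Dll peak spanned several Sp1 peaks (1343 Dll peaks in 3171 pairs) they were 85.6 and 55.7. In the 119 other single pairs they were 25.1 and 73.0, and where an Sp1 peak overlapped several Dll peaks (192 pairs) they were 64.3 and 87.2. The share of Sp1 peaks that belonged to a matched pair went from 8.92% in the lowest bin of Sp1 ranks, up to percentile 10, to 29.7% above percentile 90. For Dll it went from 9.50% to 17.5%, with the bins between at 11.6% to 17.1%. These are shares of all peaks in a bin, and partners of any kind were also more frequent at high ranks. In the lowest and highest Dll bins, 269 of 1432 and 1062 of 1249 peaks had an Sp1 partner. Of these, 136 and 218 were matched, so the matched share of partnered Dll peaks was lower in the highest bin. For Sp1, 575 of 987 and 829 of 974 peaks had a Dll partner. Of these, 88 and 289 were matched, a higher share in the highest bin. Above percentile 90 stood 218 of the matched Dll peaks (12.7%, against 10.1% of all Dll peaks) and 289 of the matched Sp1 peaks (16.9%, against 9.89% of all Sp1 peaks), and 95 pairs had both.

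**Figure D2:**
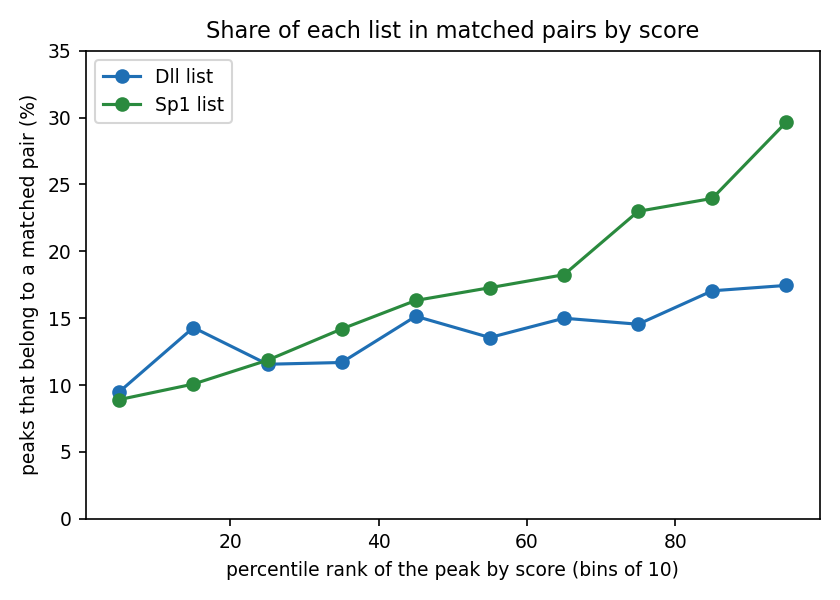
Share of the peaks of each list that belonged to a matched pair (%), by percentile rank of the peak's own score in bins of 10, for the Dll list (blue) and the Sp1 list (green). The Sp1 shares go from 8.92% to 29.7% and the Dll shares from 9.50% to 17.5%. Peaks without any partner are counted in every bin.

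The scores of the 2 peaks of a pair went together only loosely. Spearman's correlation across the 1710 pairs was 0.37 and Pearson's was 0.39, against a Spearman value of 0.23 in the 2058 other single pairs. Longer peaks had higher scores in both lists, with Spearman values of 0.60 for Dll and 0.50 for Sp1, and the 2 lengths of a matched pair are tied by the rule (0.92). Within classes of common length the correlation of the scores was 0.08 to 0.26. Of all pairs, 319 (18.7%) had both peaks above percentile 75 and 76 had both at or under percentile 25. A high Sp1 rank beside a low Dll rank, above 75 against at or under 25, occurred in 70 pairs, and the opposite occurred in 25. The 2 lists already differed in the matched set as a whole. Ranks above 75 made up 38.1% for Sp1 and 30.1% for Dll, and ranks at or under 25 made up 14.2% and 20.1%. Whether the counts of unequal pairs go beyond these shares was not tested.

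The pair with the highest Dll score was chr2R:15694319-15695252, with 42.4 for Dll and 31.3 for Sp1, and it held a candidate region assigned to the lysine transfer RNA gene tRNA:K2:56EF. On 3R the Dll peak from 6299837 scored 37.4 and its Sp1 partner 32.5, and on 3L the pair from 18187921, assigned to CG7320, scored 32.8 and 31.8. These 3 pairs had the highest sum of ranks. The highest Sp1 score, 68.1, lay on 3L between 673323 and 673667 over a Dll peak that scored 8.04. The next were 52.6 on X, at the Dll peak from 11900970 (20.0 for Dll), and 51.5 on 3L, at the Dll peak from 748661 (16.5 for Dll), which held a candidate region assigned to hng3. At the other end, the pair on 3R from 8454177 scored 4.05 for Dll and 4.00 for Sp1 and still had 80% of the Dll peak in common, so close borders were also found at the lowest scores.

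The largest differences in rank occurred in both directions. At ovo on X (Dll peak 4939497 to 4940073) Dll scored 25.6 and Sp1 4.26, and on 3L from 9502063 Dll scored 17.6 and Sp1 4.10. In the opposite direction the pair on 3R from 7430547 scored 4.05 for Dll and 16.7 for Sp1, and the pair on 3R from 20078323 scored 4.10 and 15.7. In both of the latter pairs the Dll peak lay wholly within the Sp1 peak.

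**Figure D3:**
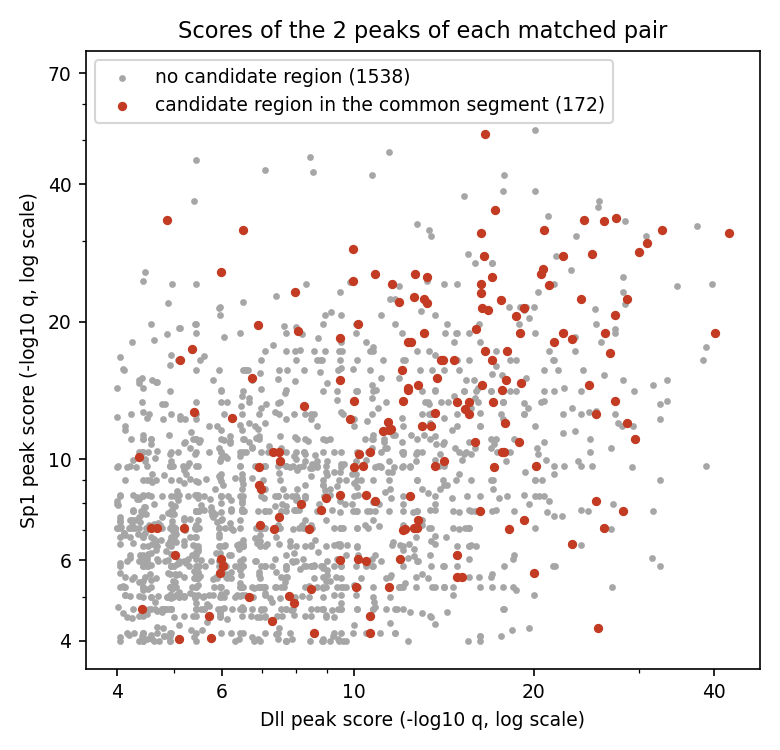
Sp1 peak score against Dll peak score (−log10 q, log scales) for the 1710 matched pairs, with the 172 pairs that hold a candidate region in red and the other 1538 in grey. The points fill most of the plane, with a Spearman value of 0.37, and red points are found at low as well as high scores.

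The pairs were spread over all large chromosome arms. There were 334 on 2L, 380 on 2R, 383 on 3L, 370 on 3R and 227 on X. They made up 15.7% of the Dll peaks on 2L, 17.1% on 2R, 14.6% on 3L, 13.8% on 3R and 10.9% (9.64% to 12.3%) on X. Of the Sp1 peaks they made up 16.1% to 19.0% on the autosomal arms and 15.3% on X. A further 16 pairs lay on heterochromatic or unplaced sequence, and none of them held a candidate region.

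Most pairs had other peaks close by. Another Dll peak lay within 500 bp of 1233 of the matched Dll peaks (72.1%), against 72.0% of all Dll peaks. Another Sp1 peak lay within 500 bp of 1033 matched Sp1 peaks (60.4%, 58.1% to 62.7%), against 66.7% of all Sp1 peaks, 54.7% of those without a Dll partner and 74.8% of those with a partner of another kind. Peaks of 1 list were never closer than 51 bp to each other. No other peak of either list lay within 1000 bp of the common segment in 259 pairs (15.1%). In contrast, 577 pairs formed 254 runs in which neighbouring pairs were at most 2 kb apart. Neither count was made for other peaks or pairs, so neither can be called particular to matched pairs. The longest run held 9 pairs on 2L between 11965060 and 11971431, with scores up to 28.1 for Dll and 30.8 for Sp1 and no candidate region. A run of 4 pairs lay near the Sp1 gene on X, between 9630215 and 9633319.

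Candidate leg regions are the stretches in which the study intersected both peak lists with open chromatin of leg discs and with predicted sites for Dll, Sp1, Mad and Pan, and each was assigned the gene nearest to it. They were made from these same peaks, so they are an annotation of the pairs and no independent evidence of binding. Of 442 candidate regions, 173 lay wholly within the common segment of a matched pair (39.1%). They fell in 172 pairs, since the pair at Dll held 2, and 128 of them had exactly the borders of the common segment. So 10.1% of matched pairs (8.72% to 11.6%) held a candidate region, against 6.13% of all overlapping pairs, matched ones included. Outside the matched set the share was 4.90%. It was 6.50% (206 of 3171 pairs) where a Dll peak spanned several Sp1 peaks and 2.48% where a single Sp1 peak shared under 50% of a larger Dll peak. These shares are per pair, and a Dll peak with several Sp1 peaks was counted once per partner. The 3171 pairs held only 1343 Dll peaks. No share per Dll peak was computed, so the pair shares do not show in which kind of Dll peak candidate regions were most frequent.

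The length of the common segment moved with this difference. Pairs with a candidate region had a median common segment of 463.5 bp, against 167 bp in pairs without one. Within each class of common length, the intervals of matched pairs and of other overlapping pairs overlapped. Between 150 and 200 bp the shares were 4.15% (2.27% to 7.47%, 10 of 241 pairs) and 2.31% (1.45% to 3.66%, 17 of 737 pairs). Between 200 and 300 bp the shares were 6.73% and 6.72%, between 300 and 450 bp 17.5% and 16.5%, and between 450 and 600 bp 31.2% and 32.1%. At 600 bp or more they were 54.3% (44.2% to 64.0%, 51 of 94 pairs) and 41.8% (33.4% to 50.7%, 51 of 122 pairs). Scores were also higher in pairs with a region, at medians of 12.8 against 7.44 for Dll and 12.7 against 7.68 for Sp1. Of the 319 pairs with both peaks above percentile 75, 87 held a region (27.3%), but 232 of these high-ranked pairs did not.

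**Figure D4:**
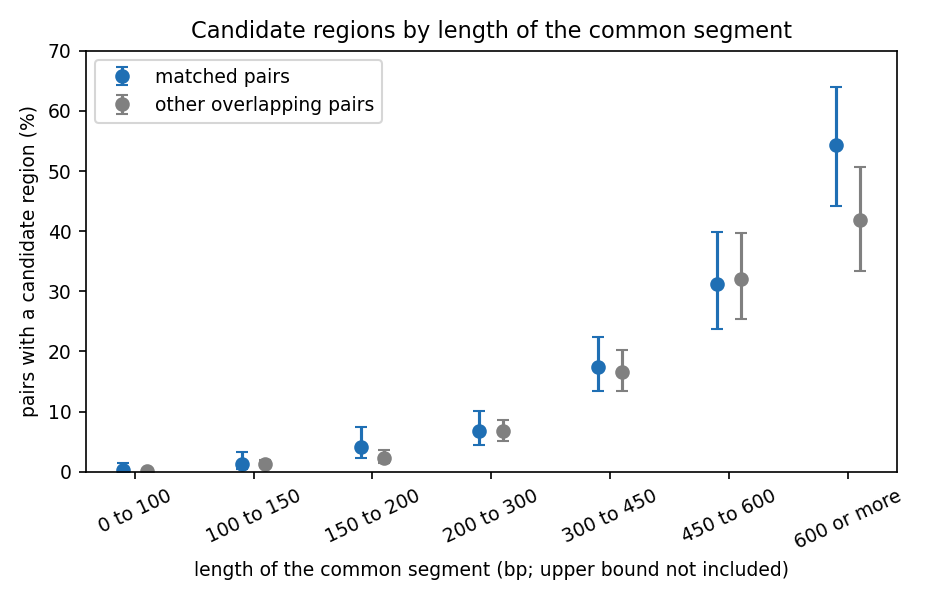
Share of pairs with a candidate region (%) by length of the common segment (bp), for matched pairs (blue) and all other overlapping pairs (grey), with 95% Wilson intervals as bars. The shares rise with length in both kinds of pairs, and the intervals of the kinds overlap in every class; the points lie farthest apart at 600 bp or more, at 54.3% and 41.8%.

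The regions in matched pairs were assigned to 155 genes, and 8 pairs held a region with no gene named. Among 99 genes of leg patterning and signalling, grouped in 11 lists, 64 had a candidate region anywhere and 35 had one in a matched pair (54.7%). In all, 41 of the 95 regions of these genes lay in matched pairs (43.2%), close to the 39.1% of all regions. Some genes with a matched pair, such as Antp, ovo, dve and Ser, also had regions in other kinds of pairs. The 40 pairs concerned had a median Dll score of 12.5 (4.85 to 40.2) and a median Sp1 score of 16.5 (4.04 to 33.7), and in 30 of them (75%) the Sp1 peak had the higher rank, against 59.9% of all 172 pairs with a region and 57.7% of all matched pairs. Both peaks stood above percentile 75 in 22 of the 40 (55%), near the 50.6% of all 172 pairs with a region. Assignment is by distance, so no value here says which gene a pair acts on.

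Genes of the proximodistal axis and appendage identity were the longest list, with 27 of the 99 genes, and 12 of its 16 genes with a region had one in a matched pair, beside 54.7% over all lists. At Dll the Dll peak chr2R:20701016-20703076 scored 24.2 and the Sp1 peak chr2R:20701067-20702491 scored 33.4, both in the top 5% of their lists by rank (97.0 and 99.1). At Sp1 the Dll peak chrX:9622988-9623775 scored 26.2 and the Sp1 peak chrX:9622989-9623589 scored 33.2. So both factors had a matched pair of high score at their own gene and at the gene of the other. Another 6 matched pairs without a region lay within 10 kb of the region at Sp1, and none did at Dll. A further matched pair at Dll, with the Dll peak chr2R:20695649-20696047, held a candidate region for which no gene was named. The Sp1-GFP larvae carry the additional copy of the Sp1 locus on the transgene in both ChIP and input chromatin, and its part in the peaks there was not tested.

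All other genes of this group with a matched pair, except disco, had an Sp1 peak of higher rank than the Dll peak. The widest gaps were at grn and tal-3A. At grain (grn), which encodes a GATA factor, Dll scored 4.85 and Sp1 33.4, with 94.8% of the Dll peak chr3R:4007126-4007874 in common. At tal-3A, part of the tarsal-less gene that encodes small peptides needed for tarsal development, the Dll peak chr3R:9638358-9639135 scored 6.52 and its Sp1 partner 31.8. At spineless (ss), a bHLH-PAS factor of the tarsus and the antenna, the scores were 7.32 and 10.4, and at the T-box gene H15 they were 9.48 and 14.9. The ranks were nearer at ss, with 52.2 for Dll and 79.3 for Sp1, and at H15, with 67.0 and 91.2.

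The remaining appendage genes ranged from strong to marginal. The homeobox gene defective proventriculus (dve) had peaks of 347 and 344 bp with 99.1% in common (chr2R:18157963-18158310 for Dll) and scores of 12.6 and 22.7. The zinc-finger gene disco-r scored 18.7 and 20.6, whereas its relative disco scored 5.09 and 4.04, near the lowest score kept. The zinc-finger gene elbow B (elB) scored 17.01 and 16.5, the POU-domain gene nubbin (nub) 9.48 and 8.33, and the tarsal gene bab2 5.99 and 6.04. By rank within the lists Sp1 stood slightly above Dll at elB (90.1 for Dll, 92.9 for Sp1) and nub (67.0 and 69.4). The genes btd, noc, salm and zfh2 also had a candidate region, but in pairs of another kind or on chromosome 4.

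Of 10 Wnt genes with a region, 3 had one in a matched pair, beside 35 of 64 over all lists; the differences between lists were not tested, and each count is small. The ligand gene Wnt2 had the second highest Dll score of all matched pairs, 40.2, beside 18.9 for Sp1 (Dll peak chr2R:5386335-5387349). The receptor gene frizzled 2 (fz2) scored 30.9 and 29.8, and dally, a glypican that binds secreted ligands, scored 13.8 and 15.1. The regions of wg, Wnt6, fz, fz3, arr, nkd and dlp lay in other kinds of pairs. All 3 Hedgehog genes with a region had one in a matched pair. These were the ligand gene hedgehog (hh, 7.47 and 7.48), the receptor gene patched (ptc, 16.3 and 23.1) and the co-receptor gene boi (12.2 and 7.03).

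Of 6 genes of Dpp and activin signalling with a region, 3 had a matched pair. The transcription factor gene schnurri (shn) had 2 of them on 2R, at 28.6 and 22.4 in the Dll peak from 7069972 and at 22.4 and 27.9 in the Dll peak from 7084733. The inhibitory Smad gene Dad scored 6.75 and 15.1, and Smox, the Smad of the activin branch, scored 12.1 and 13.4. Of 6 Notch and leg joint genes with a region, the ligand gene Serrate (Ser, 5.71 and 4.53), the zinc-finger gene drumstick (drm, 8.41 and 7.03) and TfAP-2 (8.16 and 7.98) had a matched pair. Their scores lay below both medians of the 40 pairs. In the Fat and Hippo list dachsous (ds), an atypical cadherin gene, scored 11.6 and 24.2, and fj, ex and Tgi had their regions in other kinds of pairs.

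None of the 3 EGFR pathway genes with a region assigned to them had one in a matched pair, beside 35 of 64 genes over all lists and 39.1% of all regions. No region was assigned by distance to vn or rho. The paper does report regions at the vn enhancer vnE and within a late leg enhancer of rho. The region nearest to the matched pairs at rho, 4360 bp from 1 of them, was assigned to Ptp61F. The regions of the ligand gene spitz (spi) lay under Dll peaks with several Sp1 peaks, those of the repressor gene aop in pairs with several Dll or several Sp1 peaks, and that of kek1 in a single pair with under 50% of the Dll peak in common. Matched pairs without a candidate region did occur at an EGFR ligand gene and at a ligand-processing gene. Over the genome 23.8% of overlapping pairs were matched. At rhomboid (rho), whose product cleaves the ligand precursors, 2 of 11 overlapping pairs were matched, and the Dll peak chr3L:1457503-1457878 scored 24.1 beside 15.7 for Sp1. At the ligand gene Keren (krn) 1 of 2 overlapping pairs was matched, with scores of 11.5 and 8.59. None of the 8 overlapping pairs at vein (vn), the 11 at spi or the 4 at roughoid (ru) was matched.

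Among ecdysone and timing genes, Eip74EF, which encodes an ETS factor induced by the moulting hormone, had 3 matched pairs with a region on 3L, more than any other listed gene. Their Dll peaks from 17556594, 17570449 and 17583518 scored 20.7, 16.3 and 16.5, and the Sp1 partners scored 26.0, 24.2 and 27.9. The hormone receptor gene EcR scored 12.4 and 8.32, and the microRNA locus let-7-C scored 14.7 and 16.5. In the insulin list, the receptor gene InR had a pair with 27.5 and 33.7 on 3R from 17441716 and a second from 17433827 with only 5.11 for Dll beside 16.5 for Sp1. ImpL2, which encodes a secreted inhibitor of insulin signalling, scored 16.6 and 17.3. So within a gene such as InR the balance of the 2 scores could differ from pair to pair.

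In the epidermis and actin list, the trichome regulator ovo had the unequal pair given above, while the RhoGAP gene crossveinless c (cv-c) had 2 pairs on 3R with 17.6 and 22.4, and with 11.2 and 11.5. The junction scaffold gene polychaetoid (pyd) scored 17.1 and 13.3, and the profilin gene chickadee (chic) had the shortest common segment of the 40 pairs, 111 bp, with scores of 6.02 and 5.83. Among Hox genes, Antennapedia (Antp) had 1 of its 4 candidate regions in a matched pair. That pair had 98.5% of the Dll peak chr3R:2738506-2738898 in common and scores of 10.2 and 10.2. The other Hox genes of the list had no candidate region in any pair.

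**Figure D5:**
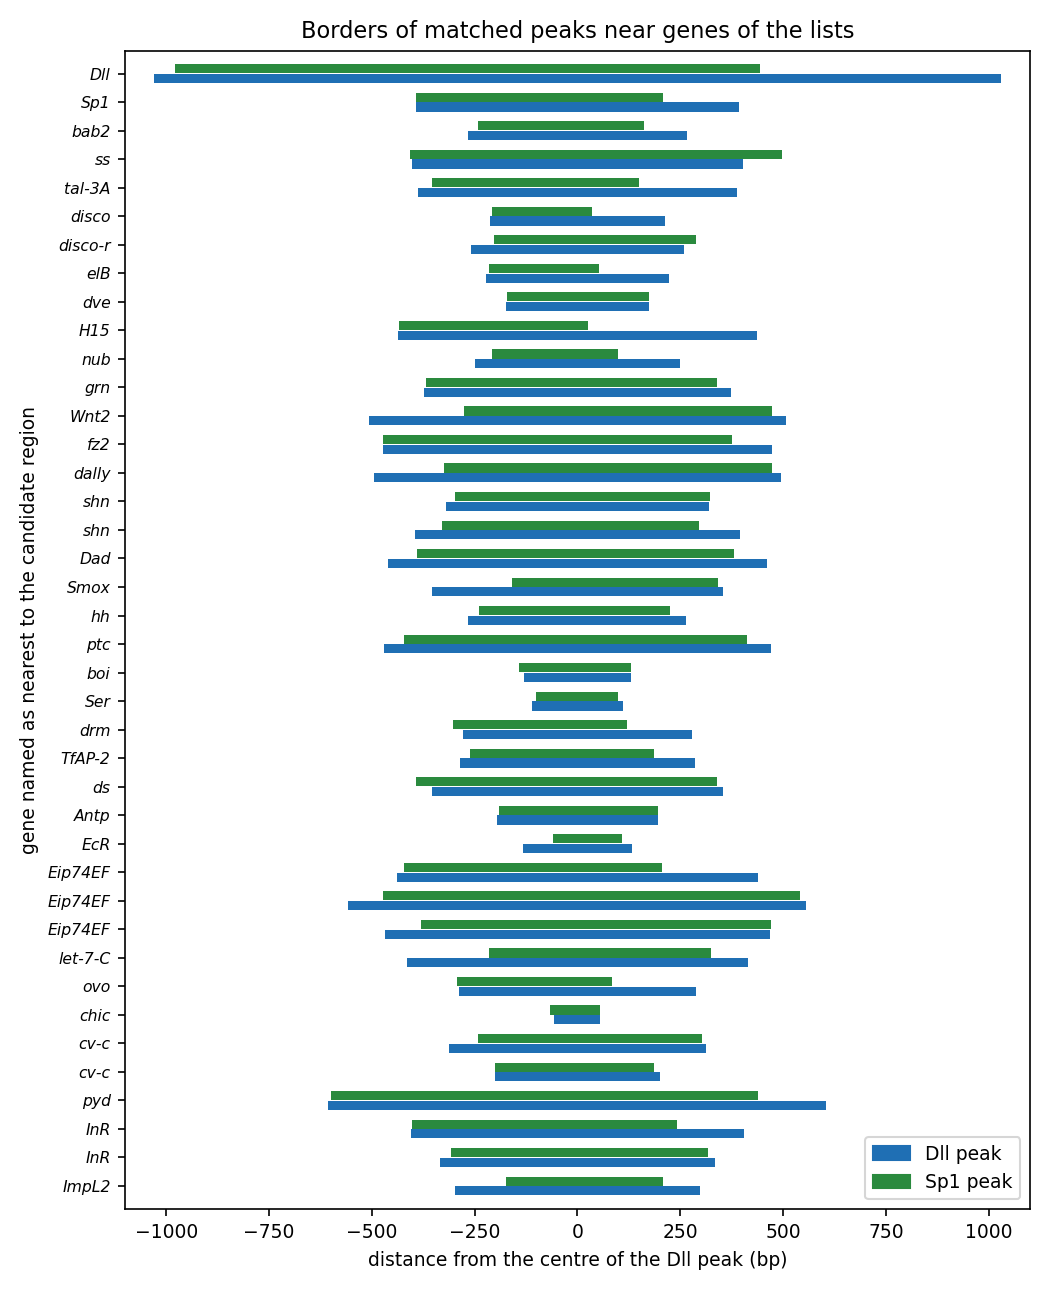
Borders of the Dll peak (blue) and the Sp1 peak (green) of the 40 matched pairs with a candidate region assigned to a gene of the lists, as distance from the centre of the Dll peak (bp). In 30 pairs the Sp1 peak lies wholly within the Dll peak; the peaks at Dll are the longest, and those at dve and Antp have almost the same borders.

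Of 22 genomic fragments that the study had chosen from its candidate regions for reporters, 8 overlapped a matched pair. The fragments and their names are the study's, and the expression they drove was not analysed here. Names carry LE, for leg enhancer, or In, and 4 of 17 LE fragments and 4 of 5 In fragments overlapped one. The study recorded leg expression for those 4 LE fragments and no leg expression for those 4 In fragments. The LE fragments were those at ss and tal with the pairs given above, and both fragments at Dll. The second of these, Dll_LE2, held the Dll peak chr2R:20695649-20696047, which scored only 4.36 beside 10.1 for Sp1. Its pair is the one with a candidate region but no gene named. The In fragments were elB_In, Antp_In1, disco_In1 and disco_In2, whose pairs are given above under elB, Antp, disco and disco-r. Besides its matched pair, disco_In2 overlapped another Dll peak, from 16042182 on X, which spanned several Sp1 peaks. The matched pairs in the LE fragments had Dll scores of 4.36 to 24.2 and those in the In fragments 5.09 to 18.7, so the ranges overlapped widely. The rest of the 22 fragments lay over Dll peaks with several Sp1 peaks or other kinds of pairs. The matched pairs given above at rho and krn lay in further reporter fragments, from the study's scans of single loci.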

How the data were processed

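The authors aligned reads to the dm3 build with the Burrows-Wheeler Aligner (version not given in the sources used here) and called peaks with MACS2 2.0.9, as the submitters' processing notes name them, on merged ChIP libraries against input. The methods mention triplicate pools and merged duplicates, so which libraries entered each list is unclear. The deposited lists give borders and a −log10 q-value, with none under 4. Starts were read as counted from 0, and coordinates are printed as deposited. Peaks were paired in Python 3.11.15 with pandas 2.3.3, numpy 2.4.6 and scipy 1.17.1, after the pairing was tested on simulated lists. Ties in rank took their average. All 155 gene names were found in a RefSeq table. Pairs were named by extremes (3 per criterion), candidate regions at listed genes and overlap with reporter fragments; rho, krn, vn, spi and ru were scanned by locus. Members, rule and gene lists were chosen with earlier results of these data known. No dm3 genome was used, so no sequences or motifs are given. The alternatives were other overlap and score limits, joining of peaks, other start counting and other chromosomes.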

Additional observations from a re-analysis of the deposited data

Results flagged for a closer look

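On chromosome 4, which is outside the set described, 28 of the 64 overlapping pairs met the same overlap rule (43.8%, 32.3% to 55.9%). Beside this, the 1710 matched pairs made up 23.8% of all 7195 overlapping pairs, a total that includes the 64 on chromosome 4. The difference was not tested.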

How the results depend on the processing

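No paired analysis was possible because peaks were called on merged libraries, and for the same reason no replicate could be left out. The number of matched pairs, 1710, became 2589, 954 and 284 when at least 30%, 70% and 90% of both peaks had to be common, and 941 with scores of at least 6 in both lists. Under the other 6 settings it was 1207 to 1738. The share of pairs with a candidate region, 10.1%, became 7.96%, 12.1% and 14.8% at those 3 limits, 17.3% with scores of at least 6, and 13.1% and 18.1% when peaks of a list within 100 bp or 500 bp were joined. It was 9.90% to 10.2% under the other 5 settings. The rank correlation of the scores was positive under all 10 settings, at 0.33 to 0.48, and the Dll peak was the longer in 63.0% to 85.2% of pairs. The median distance between centres, 20.5 bp, was 32.5, 12 and 4.5 bp at the 30%, 70% and 90% limits and 74.5 bp with joining within 500 bp. The median lengths, 248 bp for Dll and 195 bp for Sp1, were 401 and 305 bp with scores of at least 6, 356 and 295.5 bp with joining within 100 bp, and 837 and 669 bp with joining within 500 bp. With no counts or replicate values, the error of a single score or border is unknown.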
